A study of Mus musculus with 12 samples.

Results

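The amino acid transporter solute carriers are the membrane proteins that move amino acids into, out of and within cells. They were taken here as every gene symbol of the deposited table that starts with Slc1a, Slc3a, Slc6a, Slc7a, Slc36a, Slc38a or Slc43a, which gave 64 of 25897 symbols. The rule reads only the symbol and no measured value. The rule also takes in genes that carry other molecules, since the Slc6a family holds carriers of monoamines, GABA, taurine, betaine and creatine and Slc43a3 carries purine nucleobases. Slc7a6os, the neighbour of Slc7a6, encodes no carrier and was caught by its prefix.

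RNA was measured in 3 clones (a, b and c) of mouse embryonic stem cells of line E14tg2a on a 129SV background. All carried cRAF-ERT2, a RAF kinase fused to a hormone-binding domain, through which 4-hydroxytamoxifen (4OHT) switches on the ERK pathway. Every clone gave an untreated library and libraries at 1, 2 and 4 h in 250 nM 4OHT, so that the 12 libraries of ribosome-depleted total RNA form 4 groups of 3. The question was which transcripts change as ERK signalling starts. Untreated cells, like treated ones, had been kept for 24 h in serum, LIF and 250 nM of the FGF receptor inhibitor PD173074, after growth with the GSK3 inhibitor Chir99021, and received ethynyl uridine for 15 min before RNA isolation. The labels name no vehicle group and no cells without the construct. Each clone gave 1 culture per time, so p-values measure the spread between these clones. Wherever 3 values are given for a group, they are those of clones a, b and c in that order.

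Libraries held 24213641 to 31435301 counts. The 8 stem cell markers (Pou5f1, Sox2, Nanog, Esrrb, Zfp42, Klf4, Dppa4 and Tdh) were all present, with a summed level of 4041 to 4176 CPM (counts scaled to the size of the library) at 4 h and 3780 to 4207 CPM in untreated cells. Within this sum single markers moved apart at 4 h: Nanog and Klf4 fell by 1.31 ± 0.13 and 1.09 ± 0.24 in log2 (edgeR adjusted p = 0.000126 and 0.00571), and Pou5f1, Dppa4 and Tdh rose by 0.60 ± 0.10, 0.84 ± 0.10 and 0.26 ± 0.08 (edgeR adjusted p = 0.0019, 0.000255 and 0.027). Markers of other cell types were far lower but some moved: 5 trophoblast markers summed to 16.2 to 53.6 CPM at 4 h against 3.86 to 4.64 CPM in untreated cells, mostly Cdx2 and Eomes. The 8 fibroblast markers summed to 11.9 to 26.6 CPM at 4 h against 3.58 to 4.26 CPM in untreated cells, mostly Thy1, while Postn averaged 0.0132 CPM at 4 h and was at 0 in untreated cells. The 5 neural markers summed to 16.8 to 28.7 CPM at 4 h against 18.8 to 26.0 CPM in untreated cells, with Neurod1 and Tubb3 at 0. Among them Sox1 fell by 1.87 ± 0.42 and Map2 by 0.93 ± 0.31 in log2 at 4 h (edgeR adjusted p = 0.00686 and 0.0366), while Pax6 averaged 14.0 ± 3.87 CPM at 4 h and 5.01 ± 1.25 CPM in untreated cells (log2 1.48 ± 0.55, edgeR adjusted p = 0.0569, and 0.00199 with the clone as a block). The 6 primitive endoderm markers summed to 3.29 to 10.2 CPM at 4 h against 5.14 to 10.7 CPM in untreated cells. Their part in the results below was not tested, and in these bulk samples fewer cells of a type and less RNA per cell cannot be told apart.

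Amino acid carriers work in families. The SLC7 light chains do the transport but reach the cell surface only when joined to a heavy chain of the SLC3 family: Slc3a2 (4F2hc, CD98) pairs with most of them and Slc3a1 (rBAT) chiefly with Slc7a9. Light chains mostly exchange an amino acid inside the cell for one outside, whereas the SLC38, SLC1 and SLC6 carriers use the sodium gradient to load the cell, and several carriers sit on lysosomes, where they feed the sensing of amino acids by the kinase mTORC1. In many mammalian cells, starvation for amino acids raises carrier genes through the factor ATF4, which binds a composite C/EBP-ATF element in their promoters.

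That composite element, searched as TTGCATCA on both strands, was found in RefSeq promoter windows (250 bases before to 50 bases after an annotated start, GRCm38.p6) of 3 members. It was present in 0.895% of all 32851 windows and in 4 of the 67 windows of the 46 members that had any. The 3 windows below are shown because their genes differed in the measurements, Slc7a7 having the largest change of all 40 tested members and Slc7a11 a length-scaled level among the lowest. Capitals mark the element. The window of Slc7a7 is 1 of 5 in the table and lies at chr14:54417895-54418194 on the minus strand, that of Slc7a11 at chr3:50443564-50443863 on the minus strand, and that of Slc1a4 at chr11:20332664-20332963 on the minus strand.
Slc7a7: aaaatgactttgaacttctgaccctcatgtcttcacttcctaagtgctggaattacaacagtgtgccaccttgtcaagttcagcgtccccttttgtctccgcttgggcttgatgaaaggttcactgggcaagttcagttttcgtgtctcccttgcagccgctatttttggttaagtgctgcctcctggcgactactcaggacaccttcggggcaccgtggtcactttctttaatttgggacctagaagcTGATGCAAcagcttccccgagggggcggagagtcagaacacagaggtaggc
Slc7a11: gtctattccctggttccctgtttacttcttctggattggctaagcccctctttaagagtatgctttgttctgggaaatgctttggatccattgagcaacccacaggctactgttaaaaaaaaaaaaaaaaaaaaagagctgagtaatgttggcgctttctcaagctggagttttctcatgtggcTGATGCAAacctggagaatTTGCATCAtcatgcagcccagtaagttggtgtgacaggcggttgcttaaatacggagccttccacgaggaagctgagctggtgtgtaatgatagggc
Slc1a4: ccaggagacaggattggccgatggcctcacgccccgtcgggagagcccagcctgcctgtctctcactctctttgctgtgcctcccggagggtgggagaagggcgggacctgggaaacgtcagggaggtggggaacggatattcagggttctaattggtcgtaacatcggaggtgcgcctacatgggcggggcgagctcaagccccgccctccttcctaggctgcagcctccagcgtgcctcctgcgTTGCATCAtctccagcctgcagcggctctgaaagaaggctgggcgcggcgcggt
The window of Slc7a11 held the element once in each direction. The window of the heavy chain Slc3a2, at chr19:8713848-8714147 on the minus strand, is shown because Slc3a2 changed with Slc7a7. It held none of this element, but an ETS motif (CCGGAAG, searched on both strands), bound by factors of the ETS family and marked by capitals. That motif was in 8.86% of all windows and in 8 of the 67 member windows. Those were windows of Slc3a2 and Slc7a6os, which rose, and of Slc36a1, Slc36a4, Slc38a6, Slc6a16 and Slc7a6, which did not pass edgeR's test in the fit of 1 term per group.
Slc3a2: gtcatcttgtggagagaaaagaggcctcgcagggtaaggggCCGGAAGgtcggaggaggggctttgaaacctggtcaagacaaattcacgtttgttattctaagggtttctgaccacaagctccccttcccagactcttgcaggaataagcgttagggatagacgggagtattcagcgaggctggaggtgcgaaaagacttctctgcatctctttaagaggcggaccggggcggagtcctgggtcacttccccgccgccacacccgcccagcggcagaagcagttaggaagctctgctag
Motifs named AP-1, cyclic AMP response, E-box and EGR were searched as well, and each was found in some member windows. The AP-1 motif (TGANTCA) was in 7.81% of all windows and in 9 of the 67 member windows. Among these were windows of Slc7a1, which rose, and of Slc3a1, which fell. Among members that changed by 4 h, Slc7a3, Slc7a2, Slc38a1, Slc43a3 and Slc6a6 had no window and could not be searched. These matches describe the letters of the windows only, and no binding was measured.

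Of the 64 members, 40 had enough counts to be tested and 24 did not. The tested ones had at least 103 counts over the 12 libraries and the untested ones at most 100. The untested members included the 3 monoamine carriers (Slc6a2, Slc6a3 and Slc6a4), 6 of the 10 light chains and 7 of the 10 SLC6 amino acid carriers, among them the glycine carrier Slc6a9 with 5 counts in all. Slc7a5 and Slc6a18 had 0 counts in every library.

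By 4 h of 4OHT, 7 of the 40 tested members rose and 6 fell (edgeR's quasi-likelihood test, Benjamini-Hochberg adjusted p under 0.05 over 14185 genes). The members that rose are Slc7a7, Slc3a2, Slc7a3, Slc7a1, Slc38a1, Slc38a4 and the non-carrier Slc7a6os, and those that fell include Slc36a3, Slc7a2, Slc3a1, Slc43a3 and Slc6a6. These were 17.5% and 15.0% of the tested members, near the 18.0% of all tested genes that rose and the 15.1% that fell, so the carriers as a list did not stand out in how many changed. The median log2 change at 4 h was -0.11 over the members and -0.02 over all tested genes. Each of these 13 members moved the same way in all 3 clones, with no overlap between the 4 h and untreated libraries. Slc1a6, Slc36a1, Slc38a5, Slc38a9, Slc38a10 and Slc43a2 did not overlap at 4 h either, although that fit did not call them. The same libraries picked the 13, so this is no separate support, and the share of all genes without overlap was not computed. With clone as a block in the fit, 9 members were higher and 12 lower, beside 26.2% and 25.7% of all genes; among those added were Slc43a2 and Slc38a10 (higher) and Slc36a1, Slc6a15, Slc6a8 and Slc38a7 (lower).

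At 1 h edgeR called 0 members in either direction, where 0.0775% of all genes were higher and 0% lower. At an unadjusted p under 0.05 there were 2 members higher and 3 lower at 1 h, where 11.5% of all genes passed in either direction. DESeq2 also called 0 members, with 102 of all genes higher and 29 lower. With clone as a block Slc3a2 alone was higher and 0 members were lower, against 5.41% and 1.58% of all genes. At 2 h, 3 members were higher (7.50%, against 9.56% of all genes) and Slc36a3 alone was lower (2.50%, against 6.64%). With clone as a block the 2 h counts were 7 higher and 9 lower, where 20.6% and 20.0% of all genes were called. Between 1 and 2 h edgeR called 0 members (0.0564% of all genes higher and 0.00705% lower). There were 3 higher and 1 lower at an unadjusted p under 0.05, which 16.2% of all genes passed in either direction. DESeq2 called 1 member higher, with 377 of all genes higher and 179 lower. The block gave 3 higher and 2 lower, where 7.13% and 5.46% of all genes were called. Between 2 and 4 h, Slc7a7 and Slc3a2 rose further (3.27% of all genes higher) and 0 members were called lower (1.41% of all genes). In that last comparison 5 members were higher and 2 lower at an unadjusted p under 0.05, which 20.7% of all genes passed in either direction. DESeq2 called 0 members lower, with 540 of all genes lower. The block gave 6 higher and 5 lower, where 12% and 9.98% of all genes were called. An F test over the 3 treated times together called 8 members (20.0%, against 27.4% of all genes) and 23 with the block (57.5%, against 56.8%).

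**Figure D1:**
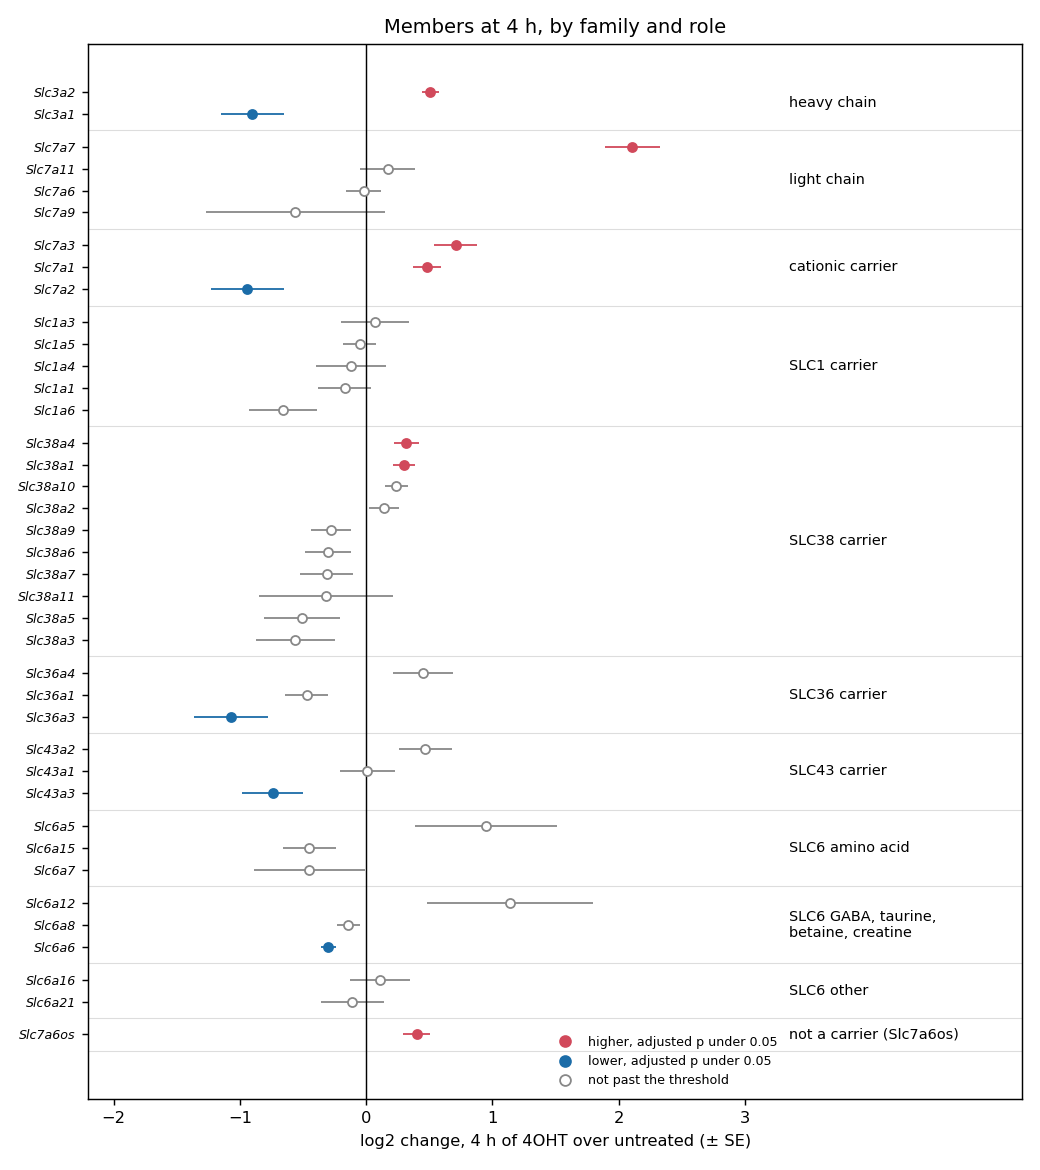
Log2 change of members at 4 h of 4OHT over untreated cells (x axis, points with SE bars), grouped by family and role; filled red and blue points passed edgeR's adjusted p of 0.05 as higher and lower, open points did not. Slc7a7 stands at 2.11, the highest, while changed members of opposite sign lie within the heavy chains and within the cationic carriers.

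The pair Slc7a7 and Slc3a2 had the firmest rise. Slc7a7 (y+LAT1, chromosome 14:54369442-54417780, minus strand, GRCm38) is a light chain that joins Slc3a2 to export cationic amino acids such as arginine in exchange for neutral ones and sodium. Its level, clone by clone, was 24.9, 27.6 and 21.2 CPM in untreated cells, 39.2, 28.8 and 27.5 CPM at 1 h, 68.9, 37.6 and 46.7 CPM at 2 h, and 118, 88.2 and 113 CPM at 4 h. Every 2 h and 4 h library lay above every untreated one, and all 3 clones climbed at 2 h and again at 4 h. Means were 106 ± 15.9 CPM at 4 h and 24.6 ± 3.20 CPM in untreated cells (SD, n = 3 clones), a 4.33-fold difference (log2 2.11 ± 0.22 SE, edgeR adjusted p = 0.000162). The log2 change was 1.05 ± 0.22 at 2 h (edgeR adjusted p = 0.0136) and a further 1.06 ± 0.21 between 2 and 4 h (edgeR adjusted p = 0.0207). At 1 h it was 0.37 ± 0.22 with an edgeR adjusted p of 0.551. The exons of Slc7a7 overlap 232 bases of Oxa1l on the other strand, whose own change at 4 h was 0.03 ± 0.08 (edgeR adjusted p = 0.787).

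Slc3a2 (chromosome 19:8706882-8723369, minus strand) is the heavy chain of Slc7a7, Slc7a5, Slc7a6, Slc7a8 and Slc7a11. It stood at 147, 161 and 162 CPM in untreated cells, 167, 184 and 186 CPM at 1 h, 171, 181 and 185 CPM at 2 h, and 220, 215 and 233 CPM at 4 h. The untreated libraries were the lowest and the 4 h libraries the highest, with the 1 h and 2 h libraries overlapping each other between them. The 4 h mean was 1.42-fold above the untreated one (log2 0.51 ± 0.07, edgeR adjusted p = 0.000432), and 0.32 ± 0.07 of this came between 2 and 4 h (edgeR adjusted p = 0.0247). The changes at 1 h and 2 h were both 0.19 ± 0.07, past the threshold with clone as a block (edgeR adjusted p = 0.033 and 0.00712) but not without it (0.327 and 0.0709). The 2 h change also passed with DESeq2 (adjusted p = 0.042). Slc7a7 and Slc3a2 at 4 h were the only member calls that held in every fit tried, without any 1 library and without any 1 clone. Their further rise between 2 and 4 h was lost when only the 2 h and 4 h libraries were fitted, where 0 of all genes were called. It was also lost without the clone b or c library at 2 h or the clone c library at 4 h. For Slc3a2 it was lost as well without the clone a library at 2 h or the clone b library at 4 h. Leaving out the whole of clone b or of clone c ended both calls, where again 0 of all genes were called (highest edgeR adjusted p over fits without a library or a clone 0.404 for Slc7a7 and 0.402 for Slc3a2). The rise of Slc7a7 at 2 h was lost only without the whole of clone c (edgeR adjusted p = 0.258), where 1 of all genes was higher at 2 h and 0 lower. Losses in fits that call almost no gene do not single out these members.

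The other heavy chain went the opposite way. Slc3a1, which with Slc7a9 reabsorbs cystine and cationic amino acids in the kidney, was at 3.67, 2.19 and 2.80 CPM in untreated cells, 2.41, 2.72 and 2.70 CPM at 1 h, 2.30, 1.81 and 2.32 CPM at 2 h, and 1.73, 1.05 and 1.90 CPM at 4 h. The 4 h libraries all lay below the untreated ones, and those at 1 h and 2 h overlapped them. It fell 1.87-fold at 4 h (log2 -0.90 ± 0.25, edgeR adjusted p = 0.018). Scaled by transcript length, Slc3a1 had 2.79 ± 0.870 TPM (counts divided by transcript length and scaled to the library) at 4 h and 5.81 ± 1.65 TPM in untreated cells (SD, n = 3), while Slc3a2 had 255 ± 16.9 TPM at 4 h and 202 ± 7.46 TPM in untreated cells. The fall was lost in a fit of the 2 groups alone and without the clone b library at 4 h or the clone a untreated library. Leaving out the whole of clone a or of clone c also ended the call (edgeR adjusted p up to 0.112 without a library or a clone). Slc3a1 also overlaps 601 bases of Prepl on the other strand, which fell by 0.30 ± 0.09 in log2 at 4 h (edgeR adjusted p = 0.021).

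**Figure D2:**
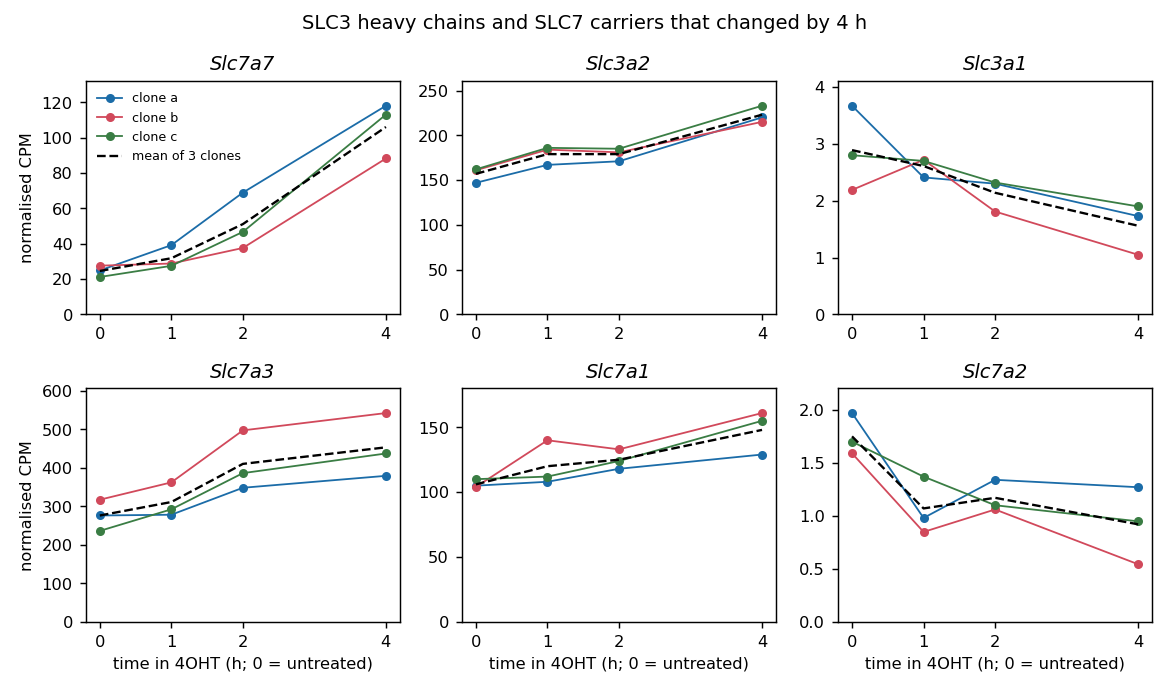
Normalised CPM (y axis, from 0) against hours in 4OHT (x axis, 0 being untreated) for the heavy chains and the SLC7 carriers that changed by 4 h; coloured lines are clones a, b and c and the dashed line their mean. Slc7a7 climbs to 88.2 to 118 CPM at 4 h against 21.2 to 27.6 CPM in untreated cells in all 3 clones, and Slc3a1 and Slc7a2 drift down at levels under 4 CPM.

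None of the other 3 tested light chains passed the test at any time. Slc7a11 (xCT), which takes up cystine for glutathione, was low throughout, at 0.883, 1.15 and 0.988 CPM at 4 h and 1.02, 0.955 and 0.727 CPM in untreated ones. The groups overlapped, and its log2 change at 4 h was 0.17 ± 0.22 (edgeR adjusted p = 0.593). Slc7a6 (y+LAT2), a close relative of Slc7a7 with the same kind of exchange, was at 58.7, 48.1 and 60.5 CPM at 4 h and 62.7, 45.9 and 61.5 CPM in untreated cells, a change of -0.02 ± 0.14 (edgeR adjusted p = 0.912). Slc7a7 averaged 130 ± 24.7 TPM at 4 h and 33.7 ± 4.12 TPM in untreated cells, and Slc7a6 49.4 ± 7.60 TPM at 4 h and 56.6 ± 10.5 TPM in untreated cells, so the level of Slc7a7 lay above that of Slc7a6 at 4 h and below it in untreated cells. Slc7a6os, next to Slc7a6, was at 49.1, 54.9 and 62.2 CPM at 4 h against 42.0, 39.9 and 44.1 CPM in untreated cells. It rose by 0.47 ± 0.11 at 2 h and 0.40 ± 0.11 at 4 h in log2 (edgeR adjusted p = 0.0192 and 0.0149). The 4 h call was lost without the clone b untreated or the clone c 4 h library, and the 2 h call without the clone a or b untreated or the clone b or c 2 h library. Both calls were also lost without the whole of clone b or of clone c (edgeR adjusted p over all these fits up to 0.138 at 4 h and 0.242 at 2 h).

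No level can be given for Slc7a5 (LAT1), the main leucine carrier of many growing cells. Its 0 counts are shared by the whole stretch of chromosome 8 around it: 72 protein-coding genes in a row, from Crispld2 to Galnt2 over 4.35 Mb (chromosome 8:119992438-124345724, GRCm38), had 0 counts in all 12 libraries, as did all 89 symbols of any type there. They include Rpl13, a ribosomal protein, Cox4i1, a subunit of the respiratory chain, and Map1lc3b, Aprt and Mvd, which most cells use. Of the 25 coding genes on each side, 12 on one and 17 on the other had more than 1000 counts. The 0 of Slc7a5 is therefore no measure of its expression, and its neural marker neighbour Tubb3 lies in the same stretch. No other member lay in a stretch of 25 or more coding genes at 0, of which the table held 6 more.

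**Figure D3:**
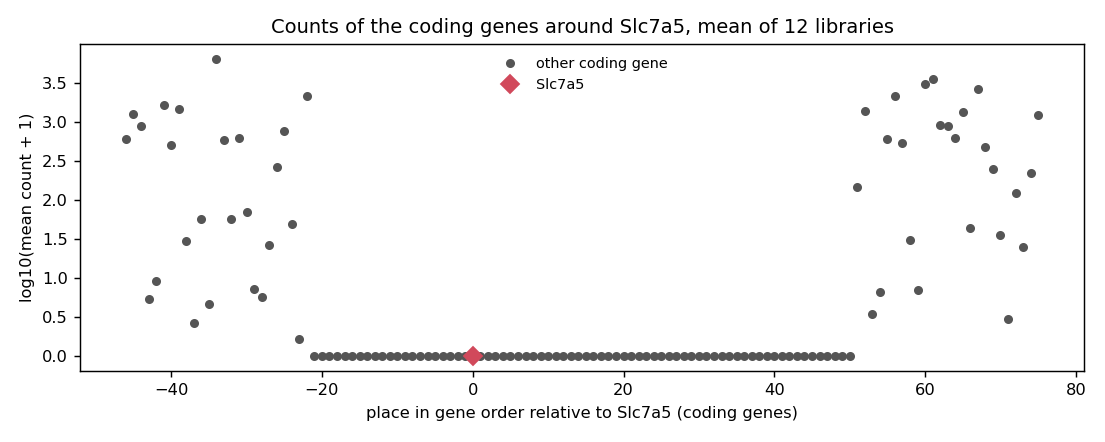
Mean count over the 12 libraries, as log10(mean count + 1) on the y axis, of coding genes in the order of their start on chromosome 8, with place relative to Slc7a5 on the x axis. The 72 genes at 0 form an unbroken stretch around Slc7a5 (red diamond), with counted genes on both sides.

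The cationic carriers of the SLC7 family, which bring arginine, lysine and ornithine into cells without a heavy chain, split. Slc7a3 (CAT3, chromosome X:101079210-101086020, minus strand) had 276, 317 and 236 CPM in untreated cells, 278, 362 and 292 CPM at 1 h, 348, 497 and 386 CPM at 2 h, and 379, 542 and 437 CPM at 4 h. Clone b was the highest at every time, and all 2 h and 4 h libraries lay above all untreated ones. It rose by 0.57 ± 0.17 at 2 h (edgeR adjusted p = 0.0423) and by 0.71 ± 0.17 at 4 h (1.64-fold, edgeR adjusted p = 0.00857) on the log2 scale. The 2 h call was near the threshold. It was lost in a fit of the 2 groups alone, without any 1 of the untreated libraries, without the clone a or c library at 1 h, the clone b or c library at 2 h or the clone c library at 4 h. Leaving out any 1 whole clone also ended the 2 h call (edgeR adjusted p up to 0.351 without a library or a clone). The 4 h call was lost only without the whole of clone c (edgeR adjusted p = 0.14).

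Slc7a1 (CAT1, chromosome 5:148327410-148399904, minus strand) had 105, 104 and 110 CPM in untreated cells, 108, 140 and 112 CPM at 1 h, 118, 133 and 124 CPM at 2 h, and 129, 161 and 155 CPM at 4 h. The 4 h libraries were all above the untreated ones, with clone a the lowest of them. It rose 1.40-fold at 4 h (log2 0.48 ± 0.11, edgeR adjusted p = 0.00633), a call lost only without the whole of clone c (edgeR adjusted p = 0.111). Its 2 h change, 0.24 ± 0.11, passed only with clone as a block (edgeR adjusted p = 0.0294, against 0.14 without it).

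Slc7a2 (CAT2) had 1.97, 1.59 and 1.70 CPM in untreated cells, 0.980, 0.848 and 1.37 CPM at 1 h, 1.34, 1.06 and 1.10 CPM at 2 h, and 1.27, 0.543 and 0.948 CPM at 4 h. All treated libraries lay below all untreated ones. It fell 1.92-fold at 4 h (log2 -0.94 ± 0.29, edgeR adjusted p = 0.027). The call was lost without the clone a or c untreated or the clone b or c 4 h library and in a fit of the 2 groups alone. Leaving out the whole of clone b or of clone c also ended the call (edgeR adjusted p up to 0.17 without a library or a clone). The exons of Slc7a2 overlap 635 bases of Gm26584 on the other strand. On the length-scaled level, Slc7a2 was far below the other 2: it had 0.412 ± 0.180 TPM at 4 h and 0.876 ± 0.122 TPM in untreated cells, while Slc7a1 had 51.8 ± 3.79 TPM at 4 h and 41.9 ± 1.71 TPM in untreated cells (SD, n = 3). Slc7a3 had 481 ± 65.7 TPM at 4 h and 332 ± 44.6 TPM in untreated cells.

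The SLC38 family (sodium-coupled carriers of glutamine, alanine and other neutral amino acids) had 10 tested members, of which 2 rose and 0 fell at 4 h, beside 18.0% and 15.1% of all tested genes. With the block 3 were higher and 1 lower, beside 26.2% and 25.7%. Slc38a1 (SNAT1) had 195, 244 and 207 CPM at 4 h and 184, 166 and 176 CPM in untreated ones, which did not overlap, although clone a differed little. It rose by 0.30 ± 0.09 in log2 (1.23-fold, edgeR adjusted p = 0.0246). Slc38a4 (SNAT4) had 276, 244 and 276 CPM at 4 h and 240, 192 and 205 CPM in untreated cells, again without overlap. It rose by 0.32 ± 0.10 (1.25-fold, edgeR adjusted p = 0.0289). Both calls were lost in a fit of the 2 groups alone, without the clone b or c untreated library and without the whole of clone b or of clone c. That of Slc38a1 was also lost without the clone b library at 4 h and that of Slc38a4 without the clone a or c library at 4 h (edgeR adjusted p up to 0.241 and 0.29 without a library or a clone).

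Slc38a2 (SNAT2), the member of the family best known for its rise in starved cells, did not pass at any time. It had 669, 568 and 560 CPM in untreated cells, 668, 710 and 657 CPM at 1 h, 658, 690 and 614 CPM at 2 h, and 600, 796 and 582 CPM at 4 h. At 4 h clone b was the highest and clones a and c lay inside the untreated range, and the log2 change was 0.14 ± 0.12 (edgeR adjusted p = 0.38). Slc38a9, the lysosomal arginine sensor that signals to mTORC1, had 15.8, 13.1 and 13.9 CPM in untreated cells, 11.8, 12.1 and 13.6 CPM at 1 h, 13.2, 8.28 and 9.26 CPM at 2 h, and 12.4, 11.6 and 11.2 CPM at 4 h. Its change at 2 h was -0.48 ± 0.16, past the threshold with the block (edgeR adjusted p = 0.0124), with DESeq2 (adjusted p = 0.028) and without the clone a library at 2 h (edgeR adjusted p = 0.0076) but not in the unblocked fit of all libraries (0.0625), and -0.28 ± 0.16 at 4 h (edgeR adjusted p = 0.198). Slc38a10 had 127, 122 and 124 CPM at 4 h and 90.5, 108 and 118 CPM in untreated cells, a change of 0.24 ± 0.09 that passed with the block (edgeR adjusted p = 0.0121), with DESeq2 (adjusted p = 0.0486) and without the clone c untreated library (edgeR adjusted p = 0.02) but not in the unblocked fit of all libraries (0.0564).

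None of the 5 tested SLC1 carriers, which hold the glutamate carriers and the neutral amino acid exchangers, passed the unblocked test at any time. Of all genes, 18.0% were higher and 15.1% lower in that test at 4 h. With the block 1 of the 5 was lower than untreated at 2 h and 1 at 4 h, beside 20.0% and 25.7% of all genes. Slc1a5 (ASCT2), a main route of glutamine entry, had 43.6, 48.9 and 50.1 CPM at 4 h and 43.0, 55.7 and 48.5 CPM in untreated cells, a log2 change of -0.05 ± 0.13 (edgeR adjusted p = 0.82). Slc1a4 (ASCT1), a carrier of serine and alanine, had 11.1, 5.70 and 7.63 CPM at 4 h and 10.5, 8.60 and 7.33 CPM in untreated cells, a change of -0.12 ± 0.28 (edgeR adjusted p = 0.787). Both sets of libraries overlapped. At 2 h Slc1a4 passed as lower only with the block (log2 -0.41 ± 0.29 unblocked, edgeR adjusted p = 0.0309 with the block and 0.334 without it).

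In the SLC36 family of proton-coupled carriers, Slc36a3 was scarce, with 172 counts in all. It stood at 0.987, 0.796 and 0.796 CPM in untreated cells, 0.653, 0.354 and 0.456 CPM at 1 h, 0.230, 0.342 and 0.356 CPM at 2 h, and 0.538, 0.339 and 0.356 CPM at 4 h. All treated libraries lay below all untreated ones. It fell by 1.46 ± 0.30 in log2 at 2 h (edgeR adjusted p = 0.0134) and by 1.07 ± 0.29 at 4 h (2.10-fold, edgeR adjusted p = 0.0155). The 2 h call was lost without the clone b or c library at 2 h, and the 4 h call without the clone b or c library at 4 h or the clone a untreated one. Both calls were also lost without the whole of clone b or of clone c (edgeR adjusted p over all these fits up to 0.248 at 2 h and 0.167 at 4 h). Slc36a1 (PAT1), which exports small neutral amino acids from lysosomes, had 11.2, 9.33 and 12.6 CPM at 4 h and 14.6, 13.0 and 18.2 CPM in untreated cells, a change of -0.47 ± 0.17 that passed with the block (edgeR adjusted p = 0.000787) and stood at the threshold, uncalled, without it (edgeR adjusted p = 0.05).

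In the SLC43 family, Slc43a3, the purine nucleobase carrier, had 1.84, 1.15 and 1.50 CPM at 4 h and 3.02, 2.27 and 2.21 CPM in untreated cells. It fell by 0.74 ± 0.24 (1.68-fold, edgeR adjusted p = 0.0358). The call was lost in a fit of the 2 groups alone and without the clone a or b untreated, the clone c 1 h, or the clone b or c 4 h library. Leaving out any 1 whole clone also ended the call (edgeR adjusted p up to 0.197 without a library or a clone). Slc43a2 (LAT4), a carrier of large neutral amino acids that needs no heavy chain, had 12.6, 20.2 and 12.3 CPM at 4 h and 9.35, 12.2 and 11.0 CPM in untreated cells. Clone b was the highest, the 4 h libraries were all above the untreated ones, and the change of 0.47 ± 0.21 passed only with the block (edgeR adjusted p = 0.00826, against 0.1).

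In the SLC6 family, Slc6a6, the taurine carrier, had 407, 396 and 390 CPM at 4 h and 454, 503 and 510 CPM in untreated cells, without overlap. It fell 1.23-fold (log2 -0.30 ± 0.06, edgeR adjusted p = 0.00301), a call lost only without the whole of clone b or of clone c (edgeR adjusted p up to 0.125).

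Slc6a8, the creatine carrier, had 188, 213 and 203 CPM at 4 h and 195, 231 and 238 CPM in untreated cells, a change of -0.14 ± 0.09 that passed with the block (edgeR adjusted p = 0.0252) and without the whole of clone a (0.0456) but not in the unblocked fit of all libraries (0.278). A pair of scarce members, named after their values were seen, had wide clone differences. Slc6a12, a carrier of betaine and GABA, had 0.922, 5.26 and 1.74 CPM at 4 h and 1.02, 1.43 and 1.18 CPM in untreated cells, with a change of 1.14 ± 0.66 (edgeR adjusted p = 0.206). The glycine carrier Slc6a5 had 1.23, 2.68 and 0.672 CPM at 4 h and 0.925, 0.756 and 0.692 CPM in untreated cells, with a change of 0.95 ± 0.56 (edgeR adjusted p = 0.21). In both, clone b had the highest 4 h library and the groups overlapped. Between 2 and 4 h Slc6a5 changed by 2.02 ± 0.62 in the unblocked fit. That comparison passed with the block (edgeR adjusted p = 0.0246) but not without it (0.0866), and its 2 h and 4 h libraries overlapped.

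**Figure D4:**
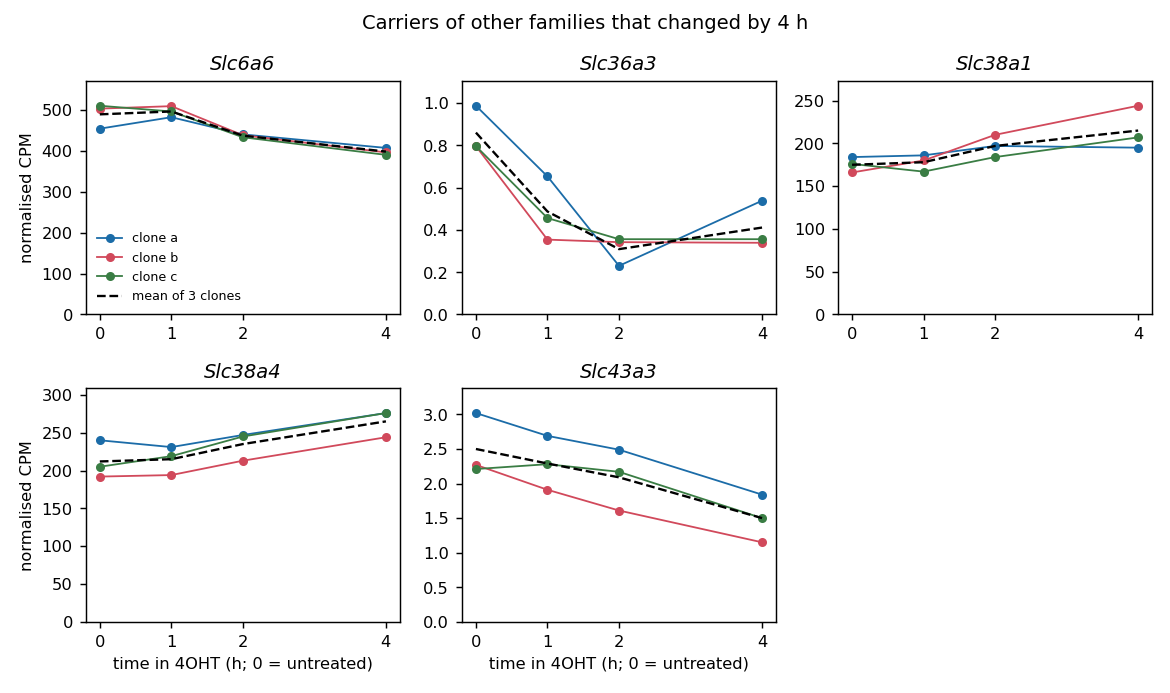
Normalised CPM (y axis, from 0) against hours in 4OHT (x axis, 0 being untreated) for carriers outside the SLC3 and SLC7 families that changed by 4 h; coloured lines are clones a, b and c and the dashed line their mean. Slc6a6 lies at 390 to 407 CPM at 4 h against 454 to 510 CPM in untreated cells, while Slc38a1 and Slc38a4 differ by small shares of their level, 1.23-fold and 1.25-fold.

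Compared per length, the carriers with the highest levels were of several families. Over the 12 libraries Slc7a3 averaged 400 TPM, Slc38a2 308 TPM, Slc38a4 229 TPM, Slc6a6 228 TPM, Slc3a2 219 TPM and Slc6a8 183 TPM. Slc38a10 followed at 78.6 TPM, Slc7a7 at 66.8 TPM, Slc7a6 at 53.5 TPM and Slc1a5 at 51.9 TPM. The means of Slc38a4, Slc6a6 and Slc3a2 over the 12 libraries differed by less than the spread of Slc38a4 between clones, and those of Slc7a6 and Slc1a5 by less than the spread of Slc7a6. The order differed between conditions: Slc3a2, at 255 ± 16.9 TPM at 4 h and 202 ± 7.46 TPM in untreated cells, passed Slc6a6, at 190 ± 12.3 TPM at 4 h and 263 ± 11.5 TPM in untreated cells. Slc7a11 was last of the 40, at 0.292 TPM, but Slc38a11 was close at 0.300 TPM. At 4 h Slc38a11 was the lower, at 0.267 ± 0.122 TPM against 0.291 ± 0.0260 TPM, so the last place is not settled.

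**Figure D5:**
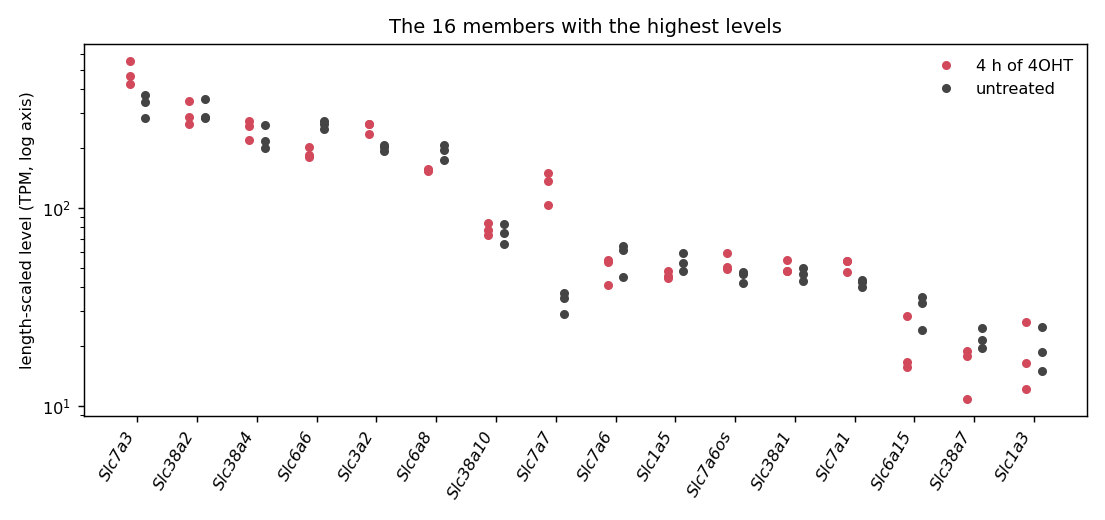
Length-scaled level in TPM (y axis, log scale) of the 16 members with the highest mean, each point being 1 clone at 4 h of 4OHT (red, left) or untreated (grey, right). Slc7a7 shows the widest gap between the 2 groups, 130 TPM on average at 4 h against 33.7 TPM in untreated cells, and Slc7a3 has the highest mean in both groups, although Slc38a2 lies above it in untreated clones a and c.

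Genes around the carriers in amino acid metabolism were read from lists drawn up beside the members. For comparison, the shares of all tested genes that were higher and lower were 9.56% and 6.64% at 2 h and 18.0% and 15.1% at 4 h (with the block 20.6% and 20.0% at 2 h and 26.2% and 25.7% at 4 h). Of 16 genes of the amino acid response, 4 were higher and 0 lower at 2 h, and 2 higher and 1 lower at 4 h. These were 25% and 0% at 2 h, against 9.56% and 6.64% of all genes. At 4 h they were 12.5% and 6.25%, against 18.0% and 15.1%. Atf4, its central transcription factor, was 0.61 ± 0.07 higher at 2 h (edgeR adjusted p = 0.00161) and 0.33 ± 0.07 higher at 4 h (edgeR adjusted p = 0.00549). Sesn2, a leucine sensor, was 0.70 ± 0.12 higher at 2 h (edgeR adjusted p = 0.00835) and 0.23 ± 0.12 at 4 h (edgeR adjusted p = 0.167). Eif4ebp1, an inhibitor of translation, averaged 278 ± 62.4 CPM at 4 h and 161 ± 15.0 CPM in untreated cells and rose by 0.78 ± 0.15 (edgeR adjusted p = 0.00306), while Ddit4, an inhibitor of mTORC1, fell by 0.78 ± 0.21 (edgeR adjusted p = 0.0166). With the block 6 were higher and 0 lower at 2 h, and 4 higher and 2 lower at 4 h. These were 37.5% and 0% at 2 h, against 20.6% and 20.0% of all genes, and 25% and 12.5% at 4 h, against 26.2% and 25.7%.

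Of the 20 aminoacyl-tRNA synthetases, which load amino acids onto tRNA, 7 were higher and 0 lower at 2 h and again at 4 h, and with the block 14 and 0 at both. The 7 are 35%, against 9.56% of all genes at 2 h and 18.0% at 4 h. Their median log2 change was 0.18 at 4 h, beside -0.02 for all tested genes. Farsa, of the phenylalanine enzyme, averaged 183 ± 17.2 CPM at 4 h and 130 ± 11.8 CPM in untreated cells and rose by 0.50 ± 0.09 (edgeR adjusted p = 0.00273). Tars, Hars and Rars, for threonine, histidine and arginine, rose by 0.24 ± 0.06, 0.22 ± 0.06 and 0.21 ± 0.06 (edgeR adjusted p = 0.0117, 0.0161 and 0.0176).

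Of 28 genes of amino acid synthesis and breakdown, 7 were higher and 0 lower at 2 h and 7 higher and 2 lower at 4 h (14 and 2, and 11 and 3, with the block). At 2 h these were 25% and 0%, against 9.56% and 6.64% of all genes, and at 4 h 25% and 7.14%, against 18.0% and 15.1%. Glul, glutamine synthetase, averaged 804 ± 132 CPM at 4 h and 280 ± 20.1 CPM in untreated cells and rose by 1.52 ± 0.14 in log2 (edgeR adjusted p = 8.68e-05). Glud1, which turns glutamate into a fuel of the citrate cycle, rose by 0.69 ± 0.10 (edgeR adjusted p = 0.000571), and Mthfd2, of mitochondrial folate metabolism, by 0.57 ± 0.10 (edgeR adjusted p = 0.00176). Cth, which makes cysteine, averaged 220 ± 11.0 CPM at 4 h and 297 ± 14.5 CPM in untreated cells and fell by 0.43 ± 0.06 (edgeR adjusted p = 0.000809).

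The other lists moved in both directions by 4 h. Of 28 measured genes by which mTORC1 senses amino acids, 3 were higher and 1 lower at 2 h and 3 higher and 4 lower at 4 h (8 and 4, and 8 and 6, with the block). The 4 h shares were 10.7% and 14.3%, against 18.0% and 15.1% of all genes. With the block they were 28.6% and 21.4%, against 26.2% and 25.7%, so the list did not stand apart in a steady direction. Sesn1 and Sesn3, relatives of Sesn2, fell by 0.92 ± 0.19 and 0.89 ± 0.18 at 4 h (edgeR adjusted p = 0.00474 and 0.00438), and Fnip1, of the folliculin complex, by 0.38 ± 0.06 (edgeR adjusted p = 0.00148). Of 9 glutathione genes, 0 were called at 2 h by edgeR and 2 were higher and 2 lower at 4 h (3 and 0, and 3 and 2, with the block), which at 4 h is 22.2% in each direction. Gss, glutathione synthetase, rose by 0.82 ± 0.19 (edgeR adjusted p = 0.00698), Txnrd1, thioredoxin reductase, by 0.53 ± 0.18 (edgeR adjusted p = 0.0436), and Gclm and Gpx4 fell by 0.32 ± 0.08 and 0.33 ± 0.09 (edgeR adjusted p = 0.0116 and 0.0165).

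The last list was drawn up for amino acid carriers outside the 7 families. It also holds Serinc genes, Slc25a39 and Slc25a40, which are not established amino acid carriers. Of its 24 tested genes, 2 were higher and 1 lower at 2 h and 3 higher and 5 lower at 4 h (3 and 5, and 5 and 5, with the block). At 4 h these were 12.5% and 20.8%, against 18.0% and 15.1% of all genes. Slc15a4, a lysosomal carrier of histidine and peptides, was 0.63 ± 0.14 higher at 2 h (edgeR adjusted p = 0.0193) and back at 0.01 ± 0.15 at 4 h (edgeR adjusted p = 0.955). Serinc5 averaged 10.7 ± 3.20 CPM at 4 h and 22.4 ± 4.77 CPM in untreated cells and fell by 1.07 ± 0.23 (edgeR adjusted p = 0.00495), and Sfxn5 fell by 1.26 ± 0.27 (edgeR adjusted p = 0.00533). Slc25a13, the mitochondrial exchanger of aspartate and glutamate, rose by 0.39 ± 0.10 (edgeR adjusted p = 0.0119).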

How the data were processed

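The deposited values are raw counts of reads for each symbol, in 1 table with a column for every library. STAR, featureCounts, DESeq and the build mm10 appear in the submitters' processing notes, but neither an annotation nor a strand setting is given in the sources used here, so members with overlapping exons are uncertain. The members and the lists were chosen with earlier results of these data known. Groups and clone letters came from the sample titles; the treatment protocol names only 0 h and 2 h.

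Genes were kept by filterByExpr (minimum count 10, minimum total 15; 14185 kept, 11712 not), scaled by TMM and fitted over all 12 libraries with edgeR's quasi-likelihood model, 1 term per group (R 4.3.3 with edgeR 4.0.16 and limma 3.58.1). Residual degrees of freedom were 8, and the estimated biological coefficient of variation was 0.163. Tests were 2-sided with Benjamini-Hochberg adjustment over all tested genes. Log2 changes carry SE, CPM and TPM carry SD over 3 clones, and TPM used GENCODE M21 exon lengths (GRCm38), which also gave coordinates, counted from 1. Alternatives were clone as a replicate block, RLE size factors, no filter, DESeq2 1.42.0, fits of 2 groups alone, and leaving out each library or clone. Clone letters pair the libraries, since 1 clone is 1 cell line: deviations from group means correlated at 0.18 to 0.68 over 18 same-clone pairs and -0.57 to -0.02 over 36 others. Deviations within a group cancel, so positive same-clone values push the others negative, and that sign is no separate support. Chi-square values of 20.3 to 113 for each degree of freedom separated the replicates, so none was merged. Named with values are members past the threshold in any pair of times, the 10 with the highest TPM and 12 set by role; members past it only with the block are counted, with up to 6 named per comparison; up to 4 genes per list are named by F test p. Values of 1 member enter the counts but are not reported here.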

Additional observations from a re-analysis of the deposited data

How the results depend on the processing

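No called change of a named member reversed under any alternative run, and RLE scaling moved the median of all genes by at most 0.01 (log2). Clones pair the libraries, and the replicate block moved the counts of members called to 1 higher at 1 h, 7 higher and 9 lower at 2 h, 12 lower at 4 h, 3 higher and 2 lower between 1 and 2 h, 6 higher and 5 lower between 2 and 4 h, and 23 in the F test over all times. DESeq2 gave 5 higher and 2 lower at 2 h, 1 higher between 1 and 2 h and 12 in its likelihood ratio test over all times. Of all genes it called 1924 higher and 1279 lower at 2 h, and 377 higher between 1 and 2 h. Fits of the 2 groups alone gave 3 lower at 4 h, where 1382 of all genes were lower, and 0 higher between 2 and 4 h. Leaving out 1 library or 1 whole clone gave 2 to 8 higher and 0 to 7 lower at 4 h, 0 to 4 higher and 0 to 3 lower at 2 h, 0 to 2 higher and 0 to 1 lower between 2 and 4 h, 0 between 1 and 2 h and at 1 h in both directions, and 0 to 11 in the F test. Without the whole of clone c, 2 members were higher and 0 lower at 4 h, and 648 of all genes were higher and 271 lower, against 2551 and 2140 with every library. At 2 h that fit called 1 of all genes higher and 0 lower, against 1356 and 942 with every library. Between 2 and 4 h, 0 of all genes were called without the whole of clone b or of clone c or with the 2 groups alone. A call lost in these fits therefore does not single out a member. Among single libraries, the count of members lower at 4 h was 2 without the clone a untreated or the clone b 4 h library. It was 3 without the clone c 4 h library. Of all genes, 1603, 1279 and 1252 were lower in these fits, in that order, against 2140 with every library. The count of members higher at 4 h was 4 without the clone b untreated library, where 2055 of all genes were higher, against 2551. At 2 h, 1 member was higher without the clone b or c 2 h or the clone a or b untreated library. Of all genes, 274, 257, 641 and 416 were higher in those fits, in that order, against 1356 with every library. Without the filter on low counts or with RLE factors, no count moved by over 1.5 times. At these depths a member under about 100 counts in all could not be tested.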
